A study of Mus musculus with 13 samples.

Results

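The 10 genes described here make up, assemble or help secrete antibody or steer B cells into plasma cells: Ighm, Igkc, Jchain, Irf4, Prdm1, Xbp1, Sdc1, Mzb1, Derl3 and Fkbp11. They were taken by gene symbol from deposited bulk RNA-seq tables, and all 10 were found among the 55421 genes of those tables. The libraries came from mouse bone marrow cells labelled HSPCs (hematopoietic stem and progenitor cells). There were 3 libraries of the genotype labelled Setd2 knockout and Srsf2 mutated (called double mutant here), 3 labelled Srsf2 mutated, 2 labelled Setd2 knockout and 2 labelled WT (wild type). Setd2 encodes the enzyme that trimethylates lysine 36 of histone H3 along transcribed genes, Srsf2 encodes a splicing factor that is mutated in myelodysplastic syndrome, and the series title links both to inflammatory signaling in that disease. The labels of the series' single-cell samples, which were not analysed here, give the alleles Mx1-Cre+, Setd2fl/fl and Srsf2P95H/+, with Cre switched on by pIpC in a transplant model. Mx1-Cre acts in the whole hematopoietic system and in other interferon-responsive cells, so the label does not restrict the change to stem cells. For the bulk libraries the alleles, the sort, the age and the strain of the mice are not given in the sources used here, and neither is whether replicates came from separate mice. The p-values therefore measure the spread between these libraries, which may be technical.

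A plasma cell is the antibody-secreting end stage of the B lineage. IRF4 and Blimp-1 (the product of Prdm1) switch off the B cell program and switch on antibody secretion, and XBP1 enlarges the endoplasmic reticulum (ER) that the secretion needs. Antibody consists of heavy chains (here μ, from Ighm) and light chains (here κ, from Igkc), and the J chain joins IgM and IgA into polymers. Sdc1 is the surface proteoglycan CD138 used to sort plasma cells, while Mzb1, Derl3 and Fkbp11 encode ER proteins. Plasma cells lie in the bone marrow, but several of these genes are also used elsewhere: Ighm is transcribed in B cell precursors, Irf4 in dendritic and activated lymphoid cells, Prdm1 in several myeloid cells, and Xbp1 in many cell types.

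Facts of the whole series that touch these genes were as follows. Libraries held 32117387 to 50445434 counts, and levels are given in CPM, counts scaled to a common library total after adjustment with the trimmed mean of M values (TMM). A single count equalled 0.0202 to 0.0326 CPM. Summed over 12 stem and progenitor genes (such as Kit, Cd34 and Gata2), levels were 757.1 to 777.1 CPM in double mutant, 1031 to 1053 in Srsf2 mutated, 1641 to 1670 in Setd2 knockout and 1519 to 1662 in wild type libraries, with none of the 12 at 0 throughout a group. On the second principal component, which held 15.7% of the variance, replicate 3 of the Srsf2 mutated group lay at -75.51, against -36.9 and -42.49 for replicates 1 and 2. Setd2 averaged 130.4 ± 0.87 CPM in double mutant and 197.1 ± 34.8 in Srsf2 mutated libraries (SD, n = 3 each), and 221.7 ± 12.9 in Setd2 knockout and 151.7 ± 9.63 in wild type libraries (SD, n = 2 each). A count over the whole gene checks neither an exon deletion nor a point mutation. Ddx3y, a Y-linked gene, averaged 123.6 CPM in double mutant and 111.2 CPM in Srsf2 mutated libraries and had 0 counts in Setd2 knockout and wild type libraries. Xist averaged 7.405 CPM in double mutant, 1.783 in Srsf2 mutated and 0.5982 in Setd2 knockout libraries, against 485.5 CPM in wild type libraries. Double mutant and Srsf2 mutated libraries both had Ddx3y counts, though their Xist levels did not overlap. In the other 3 comparisons, and in the interaction described later, the sex of the mice and the genotype cannot be told apart. As bulk samples, the libraries do not tell fewer cells of a type from less RNA per cell.

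The 4 promoters below are shown because they belong to members that moved in different ways: Jchain and Derl3 were higher in Srsf2 mutated libraries than in wild type ones, while Xbp1 was lower and Fkbp11 was not called. Promoters of 7 of the 10 members were read from RefSeq (build GRCm38.p6), each running from 250 bases before to 50 bases after the start. Ighm and Igkc had no promoter entry in the source used, and Mzb1 was left out of the search. The promoters shown are written 5′ to 3′ along the gene, with matches to 5 motifs in capitals. These motifs, read on both strands, were CCACG (a part of the ER stress response element that XBP1 and ATF6 bind), ACGTG, TGACGTGG (the unfolded protein response element), the interferon-stimulated response element that IRF factors bind, and the Ets-IRF composite element. CCACG and ACGTG overlap in CCACGTG.
Jchain, chr5:88527848-88528147, minus strand: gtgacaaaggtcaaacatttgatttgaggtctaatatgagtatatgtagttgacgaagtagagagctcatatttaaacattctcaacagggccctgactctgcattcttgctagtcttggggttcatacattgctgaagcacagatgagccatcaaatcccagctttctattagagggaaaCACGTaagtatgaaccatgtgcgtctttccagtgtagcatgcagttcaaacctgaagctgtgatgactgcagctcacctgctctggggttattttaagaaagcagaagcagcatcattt
Derl3, chr10:75893148-75893447, plus strand: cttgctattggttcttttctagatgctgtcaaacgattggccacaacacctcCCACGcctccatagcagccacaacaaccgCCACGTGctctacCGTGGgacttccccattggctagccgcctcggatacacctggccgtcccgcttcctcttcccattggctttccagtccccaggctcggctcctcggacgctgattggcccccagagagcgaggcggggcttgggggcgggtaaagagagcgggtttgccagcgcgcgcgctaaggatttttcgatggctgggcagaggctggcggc
Xbp1, chr11:5520391-5520690, plus strand: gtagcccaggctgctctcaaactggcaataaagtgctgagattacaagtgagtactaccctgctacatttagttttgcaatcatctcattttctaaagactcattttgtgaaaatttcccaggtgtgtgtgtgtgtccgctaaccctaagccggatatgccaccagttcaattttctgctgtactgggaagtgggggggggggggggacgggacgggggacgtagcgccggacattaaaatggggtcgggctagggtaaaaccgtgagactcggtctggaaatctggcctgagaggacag
Fkbp11, chr15:98727578-98727877, minus strand (the downstream of 2 starts): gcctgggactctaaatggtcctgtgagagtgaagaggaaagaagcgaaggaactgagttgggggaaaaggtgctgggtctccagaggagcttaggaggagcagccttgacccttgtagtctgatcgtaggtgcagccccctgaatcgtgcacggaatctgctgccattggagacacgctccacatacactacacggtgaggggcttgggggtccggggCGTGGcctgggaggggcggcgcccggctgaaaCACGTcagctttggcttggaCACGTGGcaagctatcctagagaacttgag
Derl3 held CCACG 3 times, and at bases 82 to 88 of its window CCACG and ACGTG merged into CCACGTG. Fkbp11 held CCACG and ACGTG around its downstream start and no match around its upstream start. Jchain held a single ACGTG, on the opposite strand at bases 182 to 186, and Xbp1 held none of the 5 motifs. Among the 7 members searched, CCACG stood in 5 (Derl3, Fkbp11, Irf4, Prdm1 and Sdc1) and ACGTG in 3 (Derl3, Fkbp11 and Jchain), against 32.8% and 19.6% of all 32851 promoters of the table. Members were counted as genes with a match at any start, and the table as single promoters, so the units differ. Fkbp11 counted through its downstream start. The other 3 motifs stood in 0 of the 7, against 0.676%, 3.44% and 2.72% of all promoters in the order given above. A match describes letters in this window only.

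Counts were tested with the edgeR quasi-likelihood model fitted over all 10 libraries, and a gene was called at a Benjamini-Hochberg adjusted p under 0.05 over the 19289 tested genes. All 10 members passed the filter on low counts. The clearest pattern was with the Srsf2 mutation: Ighm, Igkc, Jchain, Irf4, Prdm1, Sdc1 and Derl3 were 1.97- to 30.1-fold higher in Srsf2 mutated libraries than in wild type ones, and 2.97- to 17.4-fold higher in double mutant libraries than in Setd2 knockout ones. Xbp1 and Fkbp11 did not do so. In Srsf2 mutated against wild type libraries 8 of 10 members were called, 7 higher and 1 lower, where 56.3% of all tested genes were called, 28.5% higher and 27.8% lower. In double mutant against Setd2 knockout libraries 9 were called, 8 higher and 1 lower, against 51.8% of all genes (26% higher, 25.8% lower). In double mutant against Srsf2 mutated libraries 8 were called, 6 higher and 2 lower, against 33.8% of all genes (17.8% higher, 15.9% lower). In Setd2 knockout against wild type libraries 5 were called, 2 higher and 3 lower, against 38.6% of all genes (18.7% higher, 19.9% lower). The median log2 fold change of the 10 members was 1.56, 2.02, 0.47 and -0.01 in these comparisons, in that order, and that of all tested genes was 0.08, 0.01, 0.01 and 0.04. Upper-quartile scaling moved the split of all called genes between Setd2 knockout and wild type libraries to 59.5% higher, against 48.4% with TMM. That scaling gave 58.1% against 50.6% in Srsf2 mutated against wild type, 44.4% against 52.8% in double mutant against Srsf2 mutated, and 46.6% against 50.1% in double mutant against Setd2 knockout libraries. The comparisons share libraries and so are not independent of each other.

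**Figure D1:**
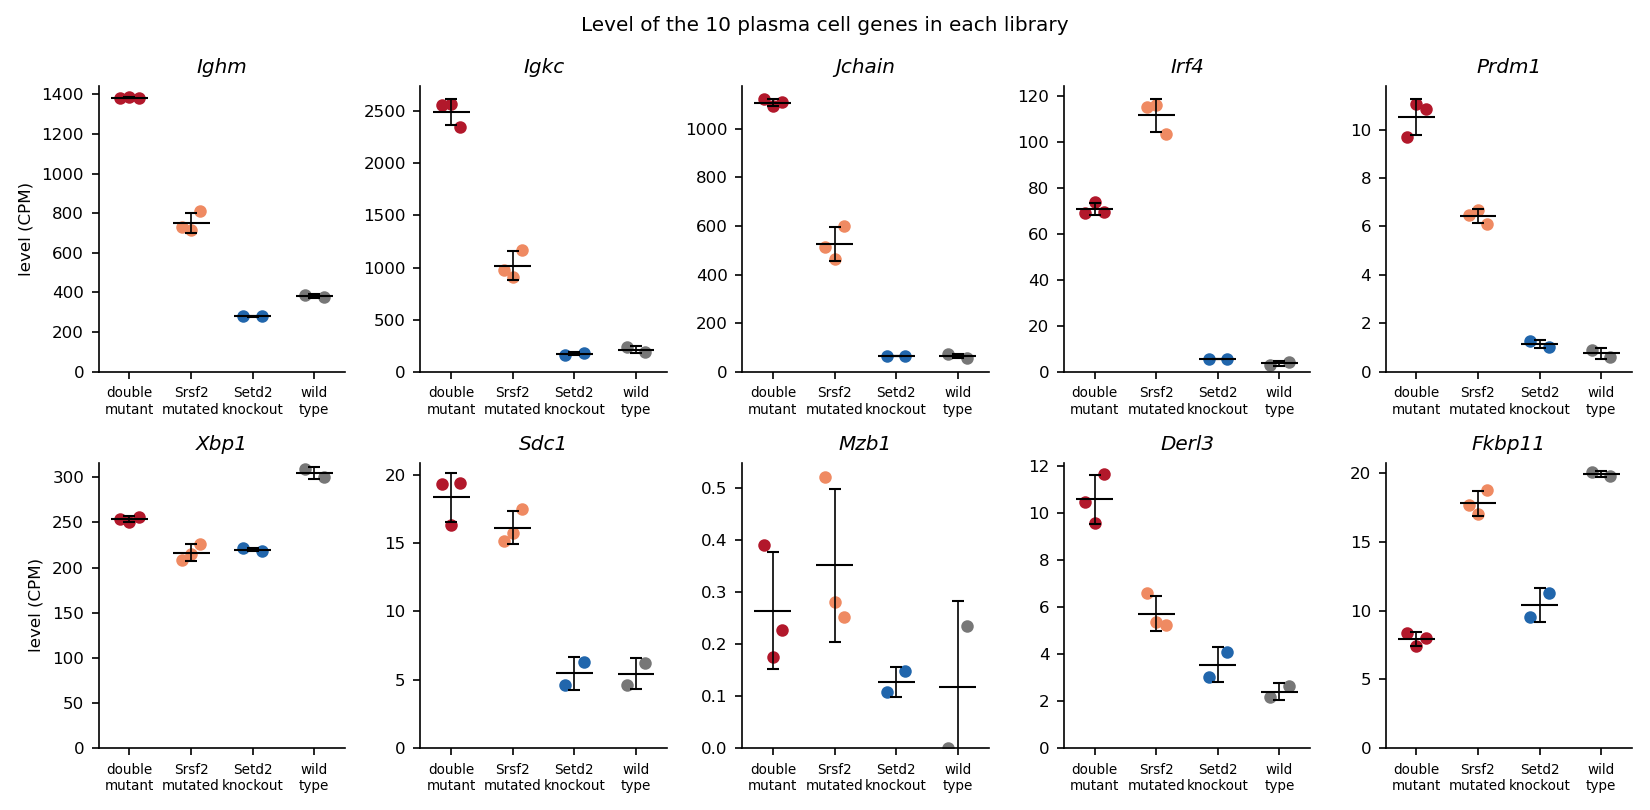
Level of each member in CPM (linear axes from 0, each with its own range) in the 3 double mutant, 3 Srsf2 mutated, 2 Setd2 knockout and 2 wild type libraries; points are libraries, the long line is the mean and the bar the SD. Ighm, Igkc, Jchain and Prdm1 stand highest in double mutant libraries, Irf4 in Srsf2 mutated libraries, and Xbp1 and Fkbp11 in wild type libraries.

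Among the antibody genes, Ighm (ENSMUSG00000076617, chromosome 12, 113418558 to 113422730 on GRCm38, minus strand), which encodes the μ heavy chain constant region, had 1383, 1386 and 1380 CPM in double mutant, 729.7, 716.0 and 808.7 CPM in Srsf2 mutated, 282.0 and 279.4 CPM in Setd2 knockout and 388.3 and 375.2 CPM in wild type libraries. No groups overlapped, and the double mutant libraries were the closest to each other, with a coefficient of variation of 0.232%. Ighm was higher in Srsf2 mutated than in wild type libraries (log2 fold change 0.98 ± 0.069 SE, edgeR adjusted p = 8.86e-09) and higher again in double mutant libraries than in Srsf2 mutated ones (0.88 ± 0.0602, adjusted p = 1.03e-08). It was lower in Setd2 knockout than in wild type libraries (-0.44 ± 0.0736, adjusted p = 0.000202). So Ighm was lower with Setd2 deleted where Srsf2 was normal and higher with Setd2 deleted where Srsf2 was mutated. A gene count does not tell the membrane form of μ from the secreted form.

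Igkc (ENSMUSG00000076609, chromosome 6, 70726435 to 70726966, plus strand) encodes the κ light chain constant region. It had 2556, 2573 and 2346 CPM in double mutant, 972.1, 908.8 and 1172 CPM in Srsf2 mutated, 162.1 and 181.5 CPM in Setd2 knockout and 234.1 and 187.2 CPM in wild type libraries. The groups with mutated Srsf2 stood clear of the others, while Setd2 knockout and wild type libraries lay close together. Igkc was 4.83-fold higher in Srsf2 mutated than in wild type libraries (log2 2.27 ± 0.117 SE, edgeR adjusted p = 2.19e-10) and 2.45-fold higher in double mutant libraries than in Srsf2 mutated ones (1.29 ± 0.0969, adjusted p = 3.06e-08). Between Setd2 knockout and wild type libraries it did not pass (-0.29 ± 0.118, adjusted p = 0.0602), though Igkc did with DESeq2 (adjusted p = 0.0405), with no filter (0.00167) and without wild type replicate 2 (0.0125) or Srsf2 mutated replicate 2 or 3 (0.0379 and 0.0111).

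Jchain (ENSMUSG00000067149, chromosome 5, 88519809 to 88527891, minus strand), whose product links IgM and IgA into polymers and is used by plasmablasts and plasma cells, had 1122, 1092 and 1109 CPM in double mutant, 512.4, 462.8 and 602.0 CPM in Srsf2 mutated, 63.82 and 63.50 CPM in Setd2 knockout and 71.33 and 58.89 CPM in wild type libraries. The Setd2 knockout values fell between the wild type ones. Jchain was 8.07-fold higher in Srsf2 mutated than in wild type libraries (log2 3.01 ± 0.112 SE, edgeR adjusted p = 4.34e-12), 2.11-fold higher in double mutant libraries than in Srsf2 mutated ones (1.08 ± 0.0879, adjusted p = 8.51e-08) and 17.4-fold higher in double mutant than in Setd2 knockout libraries (4.12 ± 0.118, adjusted p = 1.09e-13). Between Setd2 knockout and wild type libraries it differed by -0.03 ± 0.11 (adjusted p = 0.845).

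Of the regulators, Irf4 (ENSMUSG00000021356, chromosome 13, 30749226 to 30766976, plus strand) had the largest fold change of the members in Srsf2 mutated against wild type libraries. It had 68.84, 73.76 and 69.50 CPM in double mutant, 115.1, 115.8 and 103.3 CPM in Srsf2 mutated, 5.401 and 5.480 CPM in Setd2 knockout and 3.011 and 4.398 CPM in wild type libraries. Unlike the antibody genes, Irf4 was highest in Srsf2 mutated libraries, and no groups overlapped. It was 30.1-fold higher in Srsf2 mutated than in wild type libraries (log2 4.91 ± 0.135 SE, edgeR adjusted p = 1.42e-13) and 13-fold higher in double mutant than in Setd2 knockout libraries (3.70 ± 0.126, adjusted p = 9.01e-13). It was lower in double mutant libraries than in Srsf2 mutated ones (-0.66 ± 0.0901, adjusted p = 2.91e-05). In Setd2 knockout against wild type libraries it was higher (0.55 ± 0.146, adjusted p = 0.00692), a call that ended without wild type replicate 1 (0.305, adjusted p = 0.113).

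Prdm1 (ENSMUSG00000038151, chromosome 10, 44437177 to 44528501, minus strand), which encodes Blimp-1, had 9.681, 11.04 and 10.86 CPM in double mutant, 6.485, 6.679 and 6.100 CPM in Srsf2 mutated, 1.275 and 1.037 CPM in Setd2 knockout and 0.9174 and 0.6115 CPM in wild type libraries. The 4 groups were ordered with no overlap. Prdm1 was 8.38-fold higher in Srsf2 mutated than in wild type libraries (log2 3.07 ± 0.214 SE, edgeR adjusted p = 7.8e-09) and 1.64-fold higher in double mutant libraries than in Srsf2 mutated ones (0.71 ± 0.149, adjusted p = 0.00134). Its difference between Setd2 knockout and wild type libraries did not pass (0.59 ± 0.249, adjusted p = 0.0704), but did with upper-quartile scaling (0.0401), the stricter filter (0.0432) and without wild type replicate 1 (0.91, 0.033).

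Xbp1 (ENSMUSG00000020484, chromosome 11, 5520659 to 5525893, plus strand), the factor that expands the secretory apparatus, did not follow Irf4 and Prdm1. It had 254.3, 250 and 256.5 CPM in double mutant, 208.1, 214.7 and 226.5 CPM in Srsf2 mutated, 221.3 and 218.7 CPM in Setd2 knockout and 309.2 and 299.9 CPM in wild type libraries. Wild type libraries were the highest and Srsf2 mutated and Setd2 knockout libraries overlapped. Xbp1 was lower in Srsf2 mutated than in wild type libraries (log2 fold change -0.49 ± 0.0633 SE, edgeR adjusted p = 7.19e-06) and lower in Setd2 knockout than in wild type libraries (-0.47 ± 0.0701, adjusted p = 7.77e-05). It was higher in double mutant libraries than in Srsf2 mutated ones by 0.23 ± 0.0572 (adjusted p = 0.00532, but 0.0807 without Srsf2 mutated replicate 1). Against Setd2 knockout libraries it was higher in double mutant ones by 0.21 ± 0.0642 (adjusted p = 0.0136), a call that ended with no filter (0.0562) and without Srsf2 mutated replicate 1 (0.0556) or either Setd2 knockout library (0.201 and 0.226). Gene counts do not tell the spliced, active Xbp1 mRNA from the unspliced form.

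Sdc1 (ENSMUSG00000020592, chromosome 12, 8771323 to 8793715, plus strand) had 19.33, 16.29 and 19.37 CPM in double mutant, 15.12, 15.76 and 17.46 CPM in Srsf2 mutated, 4.645 and 6.327 CPM in Setd2 knockout and 4.658 and 6.256 CPM in wild type libraries. It split the libraries by the state of Srsf2 and not by that of Setd2. The groups with mutated Srsf2 overlapped each other and stood above the others, which also overlapped each other. Ddx3y counts split the libraries in the same way, so sex and the state of Srsf2 cannot be told apart here. Xist did not split them so, at 0.5982 CPM in Setd2 knockout against 485.5 CPM in wild type libraries. Sdc1 was 2.95-fold higher in Srsf2 mutated than in wild type libraries (log2 1.56 ± 0.164 SE, edgeR adjusted p = 7.9e-07) and 3.34-fold higher in double mutant than in Setd2 knockout libraries (1.74 ± 0.163, adjusted p = 2.11e-07). Its differences were 0.19 ± 0.133 between double mutant and Srsf2 mutated libraries (adjusted p = 0.321) and 0.01 ± 0.18 between Setd2 knockout and wild type libraries (adjusted p = 0.981).

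The other syndecans, a family of cell surface proteoglycans with heparan sulfate chains, included 2 genes that rose with the Srsf2 mutation, Sdc4 and Sdc3. Sdc4 averaged 19.83 CPM in double mutant, 50.67 CPM in Srsf2 mutated, 2.329 CPM in Setd2 knockout and 3.681 CPM in wild type libraries, and all 4 comparisons were called. It was higher in Srsf2 mutated than in wild type libraries (log2 3.78 ± 0.124 SE, edgeR adjusted p = 1.07e-12) and lower in double mutant libraries than in Srsf2 mutated ones (-1.35 ± 0.0905, adjusted p = 8.09e-09). Sdc3 was higher in Srsf2 mutated than in wild type libraries (0.59 ± 0.115, adjusted p = 0.000399) and higher in double mutant than in Setd2 knockout libraries (0.996 ± 0.117, adjusted p = 2.5e-06). Between double mutant and Srsf2 mutated libraries Sdc3 was not called (0.26 ± 0.1, adjusted p = 0.0597), but it was with the stricter filter (0.0345), the replicate block (0.0443), the fit of these groups alone (0.0478) and without either wild type library (0.0474 and 0.0476). Sdc2 was called in none of the 4 comparisons by edgeR (adjusted p 0.175 to 0.721).

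Among the ER genes, Derl3 (ENSMUSG00000009092, chromosome 10, 75893413 to 75895941, plus strand), which encodes a derlin of ER-associated degradation, had 10.50, 9.600 and 11.68 CPM in double mutant, 6.599, 5.367 and 5.239 CPM in Srsf2 mutated, 3.025 and 4.105 CPM in Setd2 knockout and 2.164 and 2.658 CPM in wild type libraries. The groups were ordered with no overlap. Derl3 was higher in Srsf2 mutated than in wild type libraries (log2 1.25 ± 0.195 SE, edgeR adjusted p = 5.16e-05) and higher in double mutant libraries than in Srsf2 mutated ones (0.89 ± 0.158, adjusted p = 0.000364). Its call between Setd2 knockout and wild type libraries (0.56 ± 0.212, adjusted p = 0.046) did not last: it ended with no filter (0.0527), with the fit of these groups alone (0.0567), and when Setd2 knockout replicate 2, either wild type library or any double mutant library was left out (0.055 to 0.374).

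Fkbp11 (ENSMUSG00000003355, chromosome 15, 98724366 to 98728198, minus strand), a prolyl isomerase of the secretory pathway, went the other way with Setd2. It had 8.377, 7.392 and 7.982 CPM in double mutant, 17.62, 16.99 and 18.78 CPM in Srsf2 mutated, 9.527 and 11.30 CPM in Setd2 knockout and 20.04 and 19.73 CPM in wild type libraries. Both groups with deleted Setd2 lay below both groups with normal Setd2. Fkbp11 fell in double mutant against Srsf2 mutated libraries (-1.17 ± 0.105 SE, edgeR adjusted p = 2.44e-07) and in Setd2 knockout against wild type libraries (-0.93 ± 0.125, adjusted p = 2.77e-05). The difference between these effects was -0.24 ± 0.162 (adjusted p = 0.293), and Srsf2 mutated libraries differed from wild type libraries by -0.16 ± 0.111 (adjusted p = 0.231). In double mutant against Setd2 knockout libraries Fkbp11 was lower by -0.40 ± 0.117 (adjusted p = 0.00924, but 0.111 without Setd2 knockout replicate 2).

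Mzb1 (ENSMUSG00000024353, chromosome 18, 35647267 to 35649367, minus strand), an ER protein of marginal zone B cells and plasma cells, was barely counted. It had 12, 8 and 11 counts in double mutant, 23, 14 and 10 counts in Srsf2 mutated, 5 and 7 counts in Setd2 knockout and 0 and 10 counts in wild type libraries. No comparison was called by edgeR (adjusted p 0.22 to 0.954), although Srsf2 mutated against wild type was called without wild type replicate 2 (adjusted p = 0.0175), which leaves a wild type library with 0 counts. In GENCODE M21, 57.2% of the 1215 exonic bases of Mzb1 lie on the same strand in exons of a further gene, listed in the deposited tables as Gm50318, which had 0 counts in all 10 libraries. How reads that fall in both genes were counted is not given in the sources used here, so the level of Mzb1 is uncertain.

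**Figure D2:**
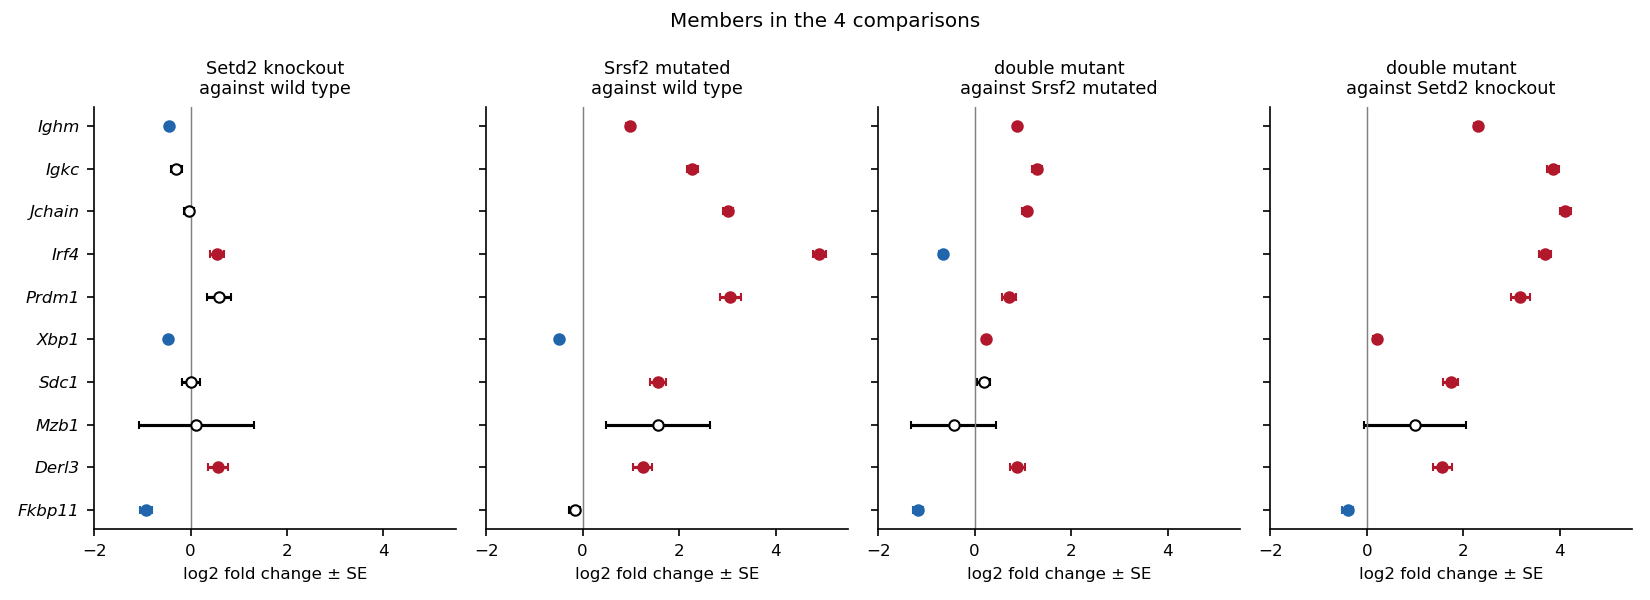
Log2 fold change of each member with its SE in the 4 comparisons; filled red points were called higher, filled blue points lower, and open points were not called at an adjusted p under 0.05. Irf4 has the largest change in Srsf2 mutated against wild type libraries (4.91), Fkbp11 lies below 0 in all 4 comparisons, and Mzb1 carries the widest bars.

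Whether the change with Setd2 deleted differed with the state of Srsf2 was tested by the interaction. The interaction was the log2 change of double mutant over Srsf2 mutated minus that of Setd2 knockout over wild type. It was called for 5 of 10 members, 4 higher and 1 lower, where 31.9% of all tested genes were called, 16.7% higher and 15.2% lower. The interaction was positive for Igkc (1.59 ± 0.153 SE, edgeR adjusted p = 8.84e-07), Ighm (1.32 ± 0.0951, adjusted p = 3.86e-08), Jchain (1.11 ± 0.14, adjusted p = 1.63e-05) and Xbp1 (0.70 ± 0.0904, adjusted p = 2.1e-05). It was negative for Irf4 (-1.21 ± 0.171, adjusted p = 4.9e-05). It was not called for Prdm1 (0.12), Derl3 (0.32), Sdc1 (0.18), Fkbp11 (-0.24) or Mzb1 (-0.55). The median interaction of all genes was -0.06, and upper-quartile scaling shifted it by -0.15 and the share of called genes that were positive to 37.6%, against 52.4%; the same 5 members were called there.

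The authors' deposited table for double mutant against Srsf2 mutated libraries gave the same signs for all 10 members, with larger standard errors for all but Mzb1. For Ighm, the authors' deposited table lists a log2 fold change of 0.81 with a standard error of 0.2883 and an adjusted p of 0.06645, for Igkc 1.217 with an adjusted p of 0.08179, and for Jchain 0.9996 with 0.08861. Of the members only Fkbp11 lies under 0.05 in the authors' deposited table for that comparison (adjusted p 0.0001567). A mean normalised count above 0 stands there for 5386 genes that have 0 counts in its 6 libraries, which a mean over these 6 libraries alone would not give. The same held for 3151 genes in the authors' table for Setd2 knockout against wild type. It also held for 3540 genes in that for Srsf2 mutated against wild type, so this feature does not set the double mutant comparison apart. The highest mean normalised count did. It was 1467640 for double mutant against Srsf2 mutated, where the highest count in a library was 413131. In each of the other comparisons it was 377184, with a highest count of 506880. The cause was not tested.

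The other immunoglobulin constant genes showed which classes were involved. Of 11 on the list 9 passed the filter (Ighe and Iglc4 did not). In Srsf2 mutated against wild type libraries 8 of the 9 were called higher and 0 lower, and in double mutant against Setd2 knockout libraries all 9 higher. In double mutant against Srsf2 mutated libraries 6 were higher and 2 lower, and in Setd2 knockout against wild type libraries 1 was higher and 3 lower. Their median log2 fold changes were 2.68, 4.48, 0.94 and -0.03 in that order of comparisons. Of all tested genes, 28.5% were called higher and 27.8% lower in the first, and 26% and 25.8% in the second. These shares were 17.8% and 15.9% in the third and 18.7% and 19.9% in the fourth. Segment and constant genes of these loci are alike in sequence, and how multiply mapping reads were counted is not given in the sources used here.

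Igha (ENSMUSG00000095079), the constant gene of IgA, was the most abundant of them. It had 6489, 6482 and 6192 CPM in double mutant, 2885, 2962 and 3506 CPM in Srsf2 mutated, 341.2 and 355.5 CPM in Setd2 knockout and 396.4 and 343.6 CPM in wild type libraries. Among all genes by count Igha ranked 6 to 8 in double mutant and 8 to 10 in Srsf2 mutated libraries, and 374 to 392 in Setd2 knockout and 385 to 491 in wild type libraries. It was 8.43-fold higher in Srsf2 mutated than in wild type libraries (log2 3.08 ± 0.0964 SE, edgeR adjusted p = 6.08e-13) and 2.05-fold higher in double mutant libraries than in Srsf2 mutated ones (1.03 ± 0.0762, adjusted p = 2.48e-08). Setd2 knockout and wild type libraries differed by -0.09 ± 0.0928 (adjusted p = 0.492). Per kilobase, the level of Igha over that of Ighm was 3.17 to 3.32 in double mutant, 2.79 to 3.06 in Srsf2 mutated, 0.855 to 0.899 in Setd2 knockout and 0.647 to 0.722 in wild type libraries, so Igha stood above Ighm with mutated Srsf2 and below it otherwise.

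Of all heavy chain constant counts, Igha took 80.2 to 81.0% in double mutant, 76.7 to 78.5% in Srsf2 mutated, 54.2 to 55.3% in Setd2 knockout and 46.6 to 49.1% in wild type libraries. Ighm took 17.3 to 17.9%, 18.1 to 19.4%, 43.5 to 44.8% and 48.1 to 50.9% in the same order of groups. Immunoglobulin constant genes together made up 0.98 to 1.03% of all counts in double mutant, 0.494 to 0.577% in Srsf2 mutated, 0.0872 to 0.0904% in Setd2 knockout and 0.0869 to 0.0985% in wild type libraries. Per kilobase Igkc (4410 to 4836 CPM per kilobase in double mutant and 351.8 to 440.1 in wild type libraries) stood above Igha (2321 to 2432 in double mutant and 128.8 to 148.6 in wild type libraries). Lambda light chain genes took 5.92 to 6.34% of light chain constant counts in double mutant, 5.93 to 7.5% in Srsf2 mutated, 3.81 to 4.27% in Setd2 knockout and 2.45 to 2.92% in wild type libraries.

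The IgG genes did not move together. Ighg1 had 156, 161 and 166 counts in double mutant, 1482, 1485 and 1454 counts in Srsf2 mutated, 5 and 10 counts in Setd2 knockout and 2 and 0 counts in wild type libraries. Srsf2 mutated libraries had 1410 times the wild type level, with an exact 95% interval for counting error of 390 to 11700. Ighg1 was lower in double mutant libraries than in Srsf2 mutated ones (log2 -3.08 ± 0.167 SE, edgeR adjusted p = 6.96e-10), against the direction of Igha, Ighm and Igkc. Its call in Setd2 knockout against wild type libraries rests on 15 against 2 counts, a ratio of 6.82 (exact 95% interval 1.59 to 61.4), and ended without Setd2 knockout replicate 2 or wild type replicate 2 (adjusted p = 0.202 and 0.223).

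Ighg2b averaged 82.64 CPM in double mutant, 57.90 CPM in Srsf2 mutated, 1.796 CPM in Setd2 knockout and 9.056 CPM in wild type libraries. It was lower in Setd2 knockout than in wild type libraries (log2 -2.33 ± 0.14 SE, edgeR adjusted p = 6.8e-09) and higher in double mutant libraries than in Srsf2 mutated ones (0.51 ± 0.0836, adjusted p = 0.000152), with an interaction of 2.85 ± 0.164 (adjusted p = 3.9e-09). Ighg3 did the same, at -3.17 ± 0.3 (adjusted p = 8.04e-07) in Setd2 knockout against wild type libraries and 0.99 ± 0.186 (adjusted p = 0.000565) in double mutant against Srsf2 mutated libraries. Ighg2c fell in Setd2 knockout against wild type libraries (-0.95 ± 0.165, adjusted p = 0.000299). Between double mutant and Srsf2 mutated libraries Ighg2c was not called. It was called higher there by edgeR with no filter (0.251, adjusted p = 0.0447), the stricter filter (0.283, 0.0437) and the fit of these groups alone (0.255, 0.0147). Ighd, the class of mature naive B cells, fell in double mutant against Srsf2 mutated libraries (-0.71 ± 0.17, adjusted p = 0.00367). The lambda genes Iglc1, Iglc2 and Iglc3 were higher in double mutant libraries than in Srsf2 mutated ones, by 0.94 ± 0.11, 2.07 ± 0.189 and 1.74 ± 0.219 (adjusted p = 5.13e-06, 3.14e-07 and 1.2e-05). They were not called between Setd2 knockout and wild type libraries (0.44, 0.14 and -0.03, adjusted p 0.0597 to 0.96), where Iglc1 was called in several alternatives, among them DESeq2 (0.0303) and no filter (0.00568).

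**Figure D3:**
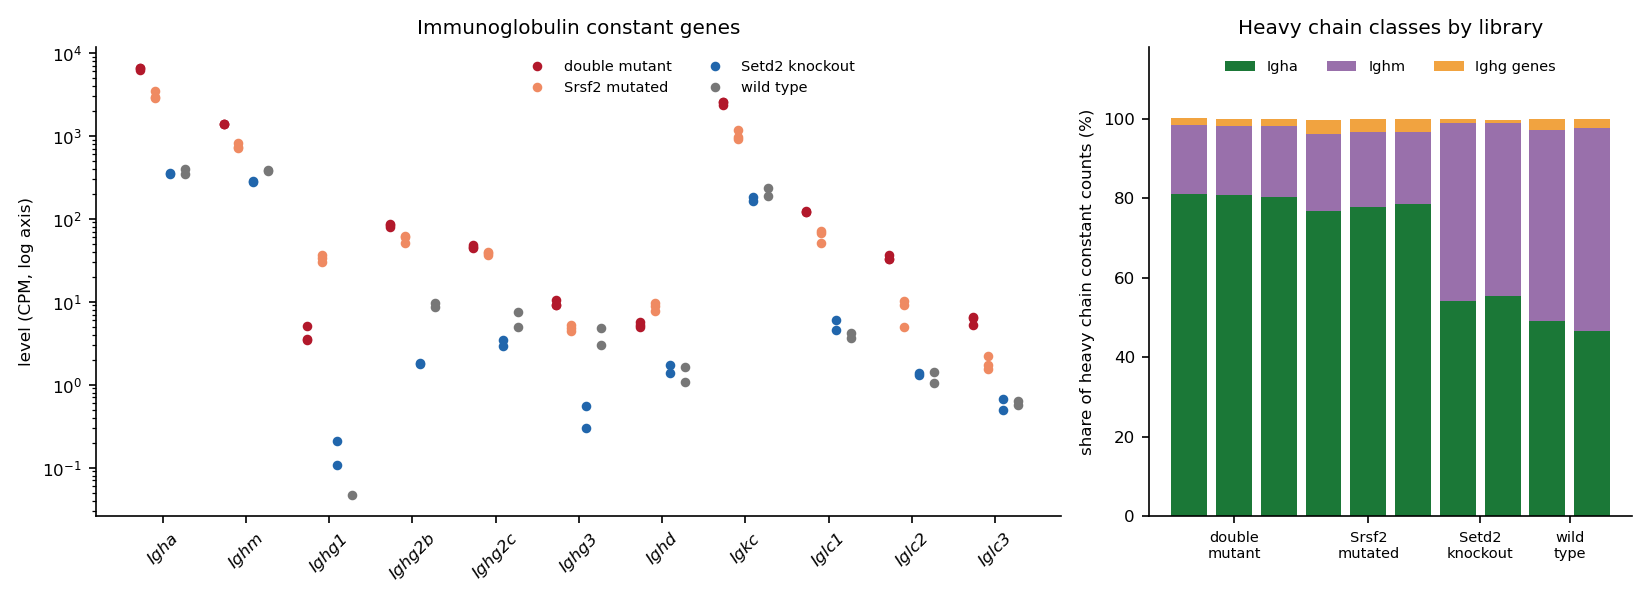
Left, level of immunoglobulin constant genes in each library in CPM on a log axis, coloured by group; wild type replicate 2 had 0 counts of Ighg1 and is not drawn there. Right, shares of heavy chain constant counts by library in percent; Igha takes 80.2 to 81.0% in double mutant and 46.6 to 49.1% in wild type libraries.

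Variable segments, which stand together with a constant region in antibody mRNA, gave a further readout of that mRNA. Summed over 185 Ighv genes, the level was 1995 ± 54.4 CPM in double mutant and 759.3 ± 43.7 in Srsf2 mutated libraries (SD, n = 3 each), and 120.4 ± 5.37 in Setd2 knockout and 154.7 ± 8.98 in wild type libraries (SD, n = 2 each). Summed over 160 Igkv genes it was 1954 ± 103 CPM in double mutant and 743.8 ± 115 in Srsf2 mutated libraries, and 121.8 ± 13 in Setd2 knockout and 117.0 ± 11 in wild type libraries. The double mutant and Srsf2 mutated values lay clear of each other and of both other groups. Ighv genes with at least 10 counts numbered 91 to 92 in double mutant, 88 to 90 in Srsf2 mutated, 67 to 68 in Setd2 knockout and 60 to 63 in wild type libraries; deeper sums allow more genes to reach that count.

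The makeup of these sums also differed. The most abundant Ighv gene took 4.93 to 5.23% of Ighv counts in double mutant (Ighv1-53), 6.51 to 7.28% in Srsf2 mutated (Ighv5-17 or Ighv6-3), 10.2 to 10.7% in Setd2 knockout and 33.1 to 44.3% in wild type libraries (Ighv1-81 in both). The overlap of Ighv usage, the sum over genes of the smaller share of a pair of libraries, was 96.4 to 96.8% among double mutant, 93.1 to 94.7% among Srsf2 mutated, 90.3% between the Setd2 knockout and 80.0% between the wild type libraries. Between groups it was 68.7 to 70.3% for double mutant with Srsf2 mutated, 65.4 to 67.2% for double mutant with Setd2 knockout, and 42.9 to 57.4% for pairs with a wild type library. For Igkv the overlap within a group was 93.1 to 96.5% in double mutant, 90.7 to 93.8% in Srsf2 mutated, 92.1% in Setd2 knockout and 69.4% in wild type libraries. Between groups it was 74.3 to 77.9% for double mutant with Srsf2 mutated and 69.2 to 71.0% for double mutant with Setd2 knockout. Srsf2 mutated with Setd2 knockout gave 71.8 to 73.3%, and pairs of a wild type library with another group 51.5 to 66.1%. The 69.4% between wild type libraries thus lay within or below the values between the other groups. Low sums add counting noise to these shares.

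**Figure D4:**
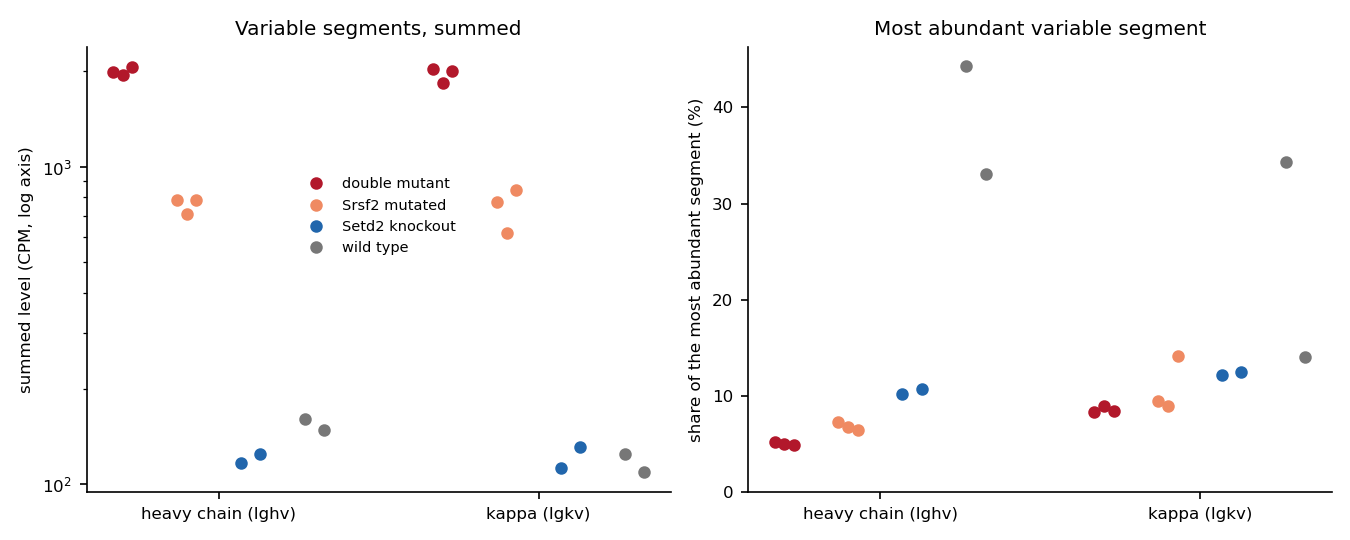
Left, summed level of heavy chain (Ighv) and kappa (Igkv) variable genes in each library in CPM on a log axis; right, the share in percent of the most abundant variable gene. Double mutant libraries have the highest sums (1995 CPM on average for Ighv) and the wild type libraries the most uneven Ighv usage (33.1 to 44.3% from a single gene).

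Other plasma cell receptors and regulators gave 14 genes, all passing the filter. In Srsf2 mutated against wild type libraries 8 rose and 3 fell, and in double mutant against Setd2 knockout libraries 11 rose and 1 fell. For double mutant against Srsf2 mutated libraries, 3 rose and 5 fell, and in Setd2 knockout against wild type libraries 3 rose and 4 fell. Of all tested genes, 28.5% rose and 27.8% fell in the first of these comparisons, and 26% and 25.8% in the second. The shares were 17.8% and 15.9% in the third and 18.7% and 19.9% in the fourth. Tent5c, a poly(A) polymerase that stabilises immunoglobulin mRNA, averaged 405.4 ± 11 CPM in double mutant and 103.6 ± 1.53 in Srsf2 mutated libraries (SD, n = 3 each), and 14.29 ± 0.134 in Setd2 knockout and 9.444 ± 0.0843 in wild type libraries (SD, n = 2 each). It was called in all 4 comparisons and rose by 1.97 ± 0.0579 SE (log2, edgeR adjusted p = 9.45e-13) in double mutant against Srsf2 mutated libraries. Ell2, an elongation factor that favours the secreted form of heavy chain mRNA, rose in double mutant against Srsf2 mutated libraries (1.40 ± 0.094, adjusted p = 8.28e-09) and in Setd2 knockout against wild type libraries (1.15 ± 0.115, adjusted p = 1.53e-06). Slamf7, a receptor of plasma and NK cells, rose in Srsf2 mutated against wild type libraries (3.51 ± 0.123, adjusted p = 2.37e-12) and fell in double mutant against Srsf2 mutated libraries (-1.30 ± 0.0916, adjusted p = 1.46e-08), as Irf4 did. Pou2af1, the B cell coactivator OCA-B, rose in Srsf2 mutated against wild type libraries (3.08 ± 0.102, adjusted p = 1.23e-12), with an interaction of -0.73 ± 0.134 (adjusted p = 0.000513). Tnfrsf13b, the receptor TACI, fell in Setd2 knockout against wild type libraries (-0.77 ± 0.0958, adjusted p = 1.39e-05).

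Most of the general secretory genes that were called were lower, unlike the antibody genes. Of 42 further secretory genes, 27 fell and 6 rose in Srsf2 mutated against wild type libraries (median log2 fold change -0.32), and 28 fell and 1 rose in Setd2 knockout against wild type libraries (-0.34). For double mutant against Srsf2 mutated libraries, 17 fell and 1 rose (-0.16), and in double mutant against Setd2 knockout libraries 18 fell and 10 rose (-0.16). Their summed level was 10520 to 10570 CPM in double mutant, 12200 to 13200 in Srsf2 mutated, 12150 to 12310 in Setd2 knockout and 15170 to 15950 in wild type libraries. Of all tested genes, 27.8% fell and 28.5% rose in the first of these comparisons, and 19.9% and 18.7% in the second. In the third 15.9% fell and 17.8% rose, and in the fourth 25.8% fell and 26% rose. Rpn2, a subunit of the oligosaccharyltransferase, fell in Srsf2 mutated against wild type libraries (-0.99 ± 0.0706 SE, edgeR adjusted p = 9.7e-09), as did Edem2, of ER-associated degradation (-1.05 ± 0.0755, adjusted p = 1.09e-08). The ER chaperones Hyou1 (-0.58 ± 0.0553, adjusted p = 5.13e-07), Calr (-0.48 ± 0.0544, adjusted p = 3.68e-06) and Hsp90b1 (-0.48 ± 0.066, adjusted p = 3.14e-05) fell in double mutant against Srsf2 mutated libraries. These genes are used by nearly every cell.

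B cell genes that Blimp-1 is known to repress in plasma cells numbered 12, of which 11 passed the filter. In Srsf2 mutated against wild type libraries 9 rose and 0 fell, and in double mutant against Setd2 knockout libraries 9 rose and 0 fell. In double mutant against Srsf2 mutated libraries 6 fell and 1 rose, and in Setd2 knockout against wild type libraries 3 fell and 2 rose. Of all tested genes, 28.5% rose and 27.8% fell in the first of these comparisons, and 26% and 25.8% in the second. The shares were 17.8% and 15.9% in the third and 18.7% and 19.9% in the fourth. Pax5, the master factor of B cell identity, averaged 45.84 CPM in double mutant and 147.5 CPM in Srsf2 mutated libraries, a fall of log2 -1.69 ± 0.115 SE (edgeR adjusted p = 9.92e-09). Bach2, which encodes a repressor of Prdm1, fell too (-1.32 ± 0.0931, adjusted p = 1.51e-08).

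Of 7 genes of IRF4's partners, all tested, Spib, an Ets factor that binds DNA with IRF4, rose in Srsf2 mutated against wild type libraries (log2 2.74 ± 0.12 SE, edgeR adjusted p = 2.97e-11) and fell in double mutant against Srsf2 mutated libraries (-0.62 ± 0.0926, adjusted p = 6.73e-05). Spi1, which encodes PU.1, fell in Setd2 knockout against wild type libraries (-0.98 ± 0.0929, adjusted p = 8.34e-07). In those comparisons 2 rose and 4 fell, 0 rose and 2 fell, and 0 rose and 4 fell. Of all tested genes, 28.5% rose and 27.8% fell in the first, 17.8% and 15.9% in the second, and 18.7% and 19.9% in the third.

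Markers of other cells also differed between the groups, not all in the direction of the members. All 16 B lineage markers, which share some genes, Pax5 among them, with the Blimp-1 list, rose in Srsf2 mutated against wild type libraries, and 15 of 16 fell in double mutant against Srsf2 mutated libraries. Their summed level was 379.3 to 393.1 CPM in double mutant, 1397 to 1511 in Srsf2 mutated, 157.1 to 158.6 in Setd2 knockout and 204.4 to 231.2 in wild type libraries, with none at 0. Dntt, the polymerase of B and T cell precursors, fell in double mutant against Srsf2 mutated libraries (log2 -2.66 ± 0.0864 SE, edgeR adjusted p = 2.13e-12), and so did Vpreb1, of the surrogate light chain (-2.69 ± 0.106, adjusted p = 1.71e-11). Of 9 markers of plasmacytoid dendritic cells 4 rose and 2 fell in that comparison and 5 rose and 0 fell in Srsf2 mutated against wild type libraries. Their sum was 204.9 to 212.9 CPM in double mutant, 227.4 to 241.0 in Srsf2 mutated, 153.2 to 156.0 in Setd2 knockout and 164.5 to 170.2 in wild type libraries, where Cd209d was at 0. Tcf4 (65.01 CPM in double mutant, 90.75 in Srsf2 mutated libraries) and Bst2 (73.48 and 72.82) made up most of that sum. Siglech (6.254 and 1.193) and Ccr9 (3.782 and 1.596) ran against it, higher in double mutant libraries. In double mutant against Setd2 knockout libraries 8 of the 9 rose and 0 fell, where 26% of all tested genes rose and 25.8% fell. Of 10 monocyte and macrophage markers 6 rose and 0 fell in double mutant against Srsf2 mutated libraries, and of 9 T and NK cell markers 5 rose and 1 fell. Of 8 eosinophil markers 6 rose and 0 fell, and of 9 mast cell and basophil markers 3 rose and 5 fell. Of all tested genes, 17.8% rose and 15.9% fell in double mutant against Srsf2 mutated libraries. The shares were 28.5% and 27.8% in Srsf2 mutated against wild type libraries. Summed levels of the monocyte markers were 1738 to 1848 CPM in double mutant, 1337 to 1453 in Srsf2 mutated, 1613 to 1755 in Setd2 knockout and 1953 to 1972 in wild type libraries. Those of the T and NK markers were 136.4 to 142.5, 149.3 to 188.6, 200 to 218.3 and 386.8 to 420.9 CPM in the same order of groups, with Cd3g at 0 in wild type libraries. Nkg7, a granule gene of NK and cytotoxic T cells, made up most of that sum, with means of 117.9 CPM in double mutant, 151.9 in Srsf2 mutated, 204.9 in Setd2 knockout and 395.8 in wild type libraries. Cd3e, a T cell receptor subunit named after its values were seen, ran the other way, at 1.425 CPM in double mutant, 0.488 in Srsf2 mutated, 0.01058 in Setd2 knockout and 0.01176 in wild type libraries. Those of the eosinophil markers were 1773 to 1820, 1291 to 1560, 174.0 to 186.2 and 850.3 to 987.5 CPM, and those of the mast cell and basophil markers 733.1 to 744.0, 1066 to 1266, 316.8 to 323.3 and 467.1 to 490.1 CPM. The part of any of these cells in the members' levels was not tested.

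Of 12 plasma cell markers, 8 are members here, and Igha, Ighg1, Slamf7 and Tnfrsf17 are the others. In Srsf2 mutated against wild type libraries 9 rose and 1 fell, and in double mutant against Srsf2 mutated libraries 5 rose and 4 fell. Of all tested genes, 28.5% rose and 27.8% fell in the first of these comparisons, and 17.8% and 15.9% in the second. Tnfrsf17, the receptor BCMA, which plasma cells need, averaged 1.928 ± 0.139 CPM in double mutant and 0.9877 ± 0.4 in Srsf2 mutated libraries (SD, n = 3 each), and 0.07406 ± 0.105 in Setd2 knockout and 0.1764 ± 0.0167 in wild type libraries (SD, n = 2 each). Tnfrsf17 and Mzb1 thus stood at a few CPM or less in every group. By group means, Igha, Ighm, Igkc, Jchain, Prdm1, Sdc1, Derl3 and Tnfrsf17 were highest in double mutant and next in Srsf2 mutated libraries, with overlap between these groups for Sdc1. Irf4, Xbp1 and Fkbp11 had other orders, so the 10 members did not move as a single set.

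**Figure D5:**
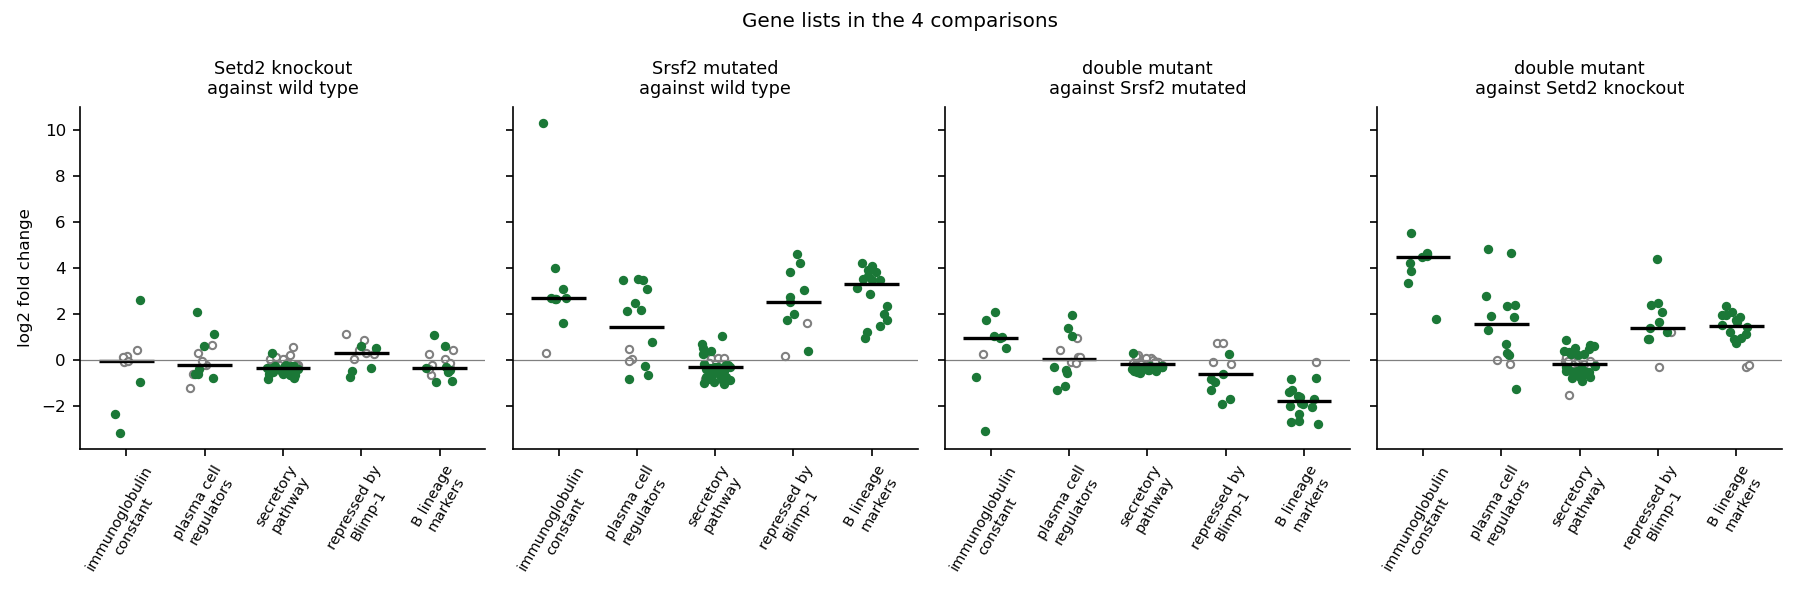
Log2 fold change of each tested gene of 5 lists in the 4 comparisons; filled points were called at an adjusted p under 0.05, open points were not, and the line is the list's median. Most constant genes lie above 0 and most B lineage markers below 0 in double mutant against Srsf2 mutated libraries, while both lie above 0 in Srsf2 mutated against wild type libraries; the point above 10 is Ighg1, whose wild type libraries had 2 and 0 counts.

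Across the 10 libraries, log2 levels of Ighm and Igkc (Pearson r = 0.991), Igkc and Jchain (0.994) and Jchain and Prdm1 (0.986) ran together, and Irf4 ran less closely with Ighm (0.835). Xbp1 (-0.027 with Ighm) and Fkbp11 (-0.443 with Ighm) did not. The 4 groups set these values, so they describe the order of groups and carry no p. By the same measure over all 10 libraries, the gene most like Ighm was Bmx (0.9984), like Igkc Tlr2 (0.9970), like Jchain Il1b (0.9978), like Irf4 S1pr5 (0.9985) and like Prdm1 Cd274 (0.9977). For Xbp1 it was Scnn1a (0.9917), for Sdc1 Cd74 (0.9911), for Derl3 Vcan (0.9846), for Fkbp11 Npl (0.9860) and for Mzb1 Snrnp35 (0.9265).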

How the data were processed

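RNA-seq of 10 bulk libraries in 4 genotypes was used from 3 deposited tables; the 3 single-cell samples were not analysed here. Per the file headers, the tables give whole-number counts per gene and library and FPKM, which equalled the count over gene length and total count. The authors' log2 fold change, p-value and adjusted p-value, and a mean normalised count (a score of abundance), stand in the same deposited tables. The submitters' processing notes list HISAT2 2.0.5, STAR 2.6.1a, HTSeq 0.9.1, featureCounts 2.0.1 and DESeq2 1.22.2 without their roles. Strandedness is not given in the sources used here. The tables were joined on Ensembl identifiers (55421 genes); 5 libraries in 2 tables had identical counts, and 27 symbols turned into dates were restored.

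Counts were filtered with filterByExpr and fitted with edgeR 4.0.16 (R 4.3.3): TMM scaling, 1 quasi-likelihood model over 10 libraries, 19289 tested genes. Reported SEs are those of the fit on the log2 scale. The model was first run on simulated counts with 200 changed genes and the same spread for every gene. Far more genes were called in these data, so that run does not test the scaling or the error rate here. Replicates differed by more than sampling noise (chi-square per degree of freedom 5.41 to 45.2). Alternatives were DESeq2 1.42.0, other scalings and filters, fewer libraries and a replicate block. Intervals cover counting error only, since reads carry no molecular identifiers. Positions are from GENCODE M21 (GRCm38). Named were all members, every tested constant and syndecan gene, from each other list up to 3 genes of smallest adjusted p in a comparison, and each member's most alike genes (log2 CPM with prior count 2, a group mean of at least 4 CPM, without predicted models and immunoglobulin segments). Tnfrsf17 was named after its values were seen. The members and the gene lists were chosen with earlier results of these data known. Some genes of the lists count in their totals but are not reported here.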

Additional observations from a re-analysis of the deposited data

Results flagged for a closer look

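For 5 members the log2 change with Setd2 deleted differed between mutated and normal Srsf2, by the interaction term of the edgeR fit. In that term the sex of the mice and the genotype cannot be told apart. The difference, as log2 change with mutated Srsf2 minus log2 change with normal Srsf2, was 1.586 for Igkc (adjusted p = 8.84e-07), 1.324 for Ighm (3.86e-08), 1.108 for Jchain (1.63e-05), 0.698 for Xbp1 (2.1e-05) and -1.210 for Irf4 (4.9e-05). Ighm and Xbp1 were called in both single comparisons with opposite signs, higher in double mutant libraries than in Srsf2 mutated ones and lower in Setd2 knockout than in wild type libraries. Irf4 was called with the opposite pattern, lower in double mutant libraries than in Srsf2 mutated ones and higher in Setd2 knockout than in wild type libraries. Each of the 5 interaction calls kept its direction and its side of the threshold in every alternative run. Not all calls in the single comparisons did so. Irf4 in Setd2 knockout against wild type libraries moved to log2 0.305 without wild type replicate 1. Xbp1 in double mutant against Srsf2 mutated libraries had an edgeR adjusted p of 0.0807 without Srsf2 mutated replicate 1.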

How the results depend on the processing

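Of the members called, counts stayed within 1.5 times under every alternative: 4 to 6 in Setd2 knockout against wild type, 8 to 9 in Srsf2 mutated against wild type, 7 to 8 in double mutant against Srsf2 mutated, 7 to 9 in double mutant against Setd2 knockout, and 5 in the interaction. With the replicate block 4, 8, 8, 9 and 5 members were called in that order of comparisons, with Derl3 in Setd2 knockout against wild type not called (adjusted p = 0.0594). Deviations of libraries with the same number correlated at -0.028 to 0.04, and those with different numbers at -0.057 to 0.057. In a group of 2 libraries the deviations mirror each other, so these values give no sign of pairing but cannot exclude it. The count of all genes called between Setd2 knockout and wild type was 7449, and 4792 without Setd2 knockout replicate 1. Scaled by plain totals, the summed Ighv level was 1911 in double mutant, 131.2 in Setd2 knockout and 145.1 in wild type libraries.

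Signs turned only in differences that were not called. In Setd2 knockout against wild type, Jchain stood at 0.059 with upper-quartile scaling, 0.046 with the stricter filter and -0.165 to 0.111 when a library was left out. Igha stood at 0.005 with upper-quartile scaling, and Iglc3 at 0.061 there and 0.048 with the stricter filter. Ranges without a library were -0.226 to 0.236 for Sdc1, -0.863 to 5.523 for Mzb1, -0.187 to 0.018 for Igha, -0.264 to 0.189 for Iglc3, -0.057 to 0.357 for Iglc2, -0.087 to 0.517 for Ighd and -0.282 to 0.006 for Sdc3. In double mutant against Setd2 knockout Sdc2 ranged over -0.011 to 0.181. In the interaction Prdm1 stood at -0.026 with upper-quartile scaling and -0.202 to 0.380 without a library, Sdc1 at -0.083 to 0.373 and Mzb1 at -5.955 to 0.430. The cause was not tested. With 2 libraries in 2 of the groups, leaving out a library leaves a lone one, assumed to vary like the rest.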
